A study of Mus musculus with 15 samples.

Results

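Integrins are heterodimers of one alpha and one beta subunit, and the group described here holds the integrin genes by which lymphocytes adhere, home to the gut and stay in tissue. Its members were taken by gene symbol: the alpha subunits Itga1, Itga2, Itga4, Itgae, Itgal and Itgav and the beta subunits Itgb1, Itgb2, Itgb3 and Itgb7. They are 10 of the 27 integrin subunit genes among 24690 entries. RNA-seq counts and RPKM (reads scaled for transcript length and library depth) were available for all of them in 15 libraries of group 2 innate lymphoid cells (ILC2s) and their precursors (ILC2p), and the question put to them was whether loss of the TGF-β receptor gene Tgfbr2 altered these transcripts.

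A beta subunit can pair with several alpha subunits, and the pair decides the ligand. In lymphocytes α4β7 binds MAdCAM-1 on gut venules, αEβ7 (CD103) binds E-cadherin on epithelium, αLβ2 (LFA-1) binds ICAMs, α4β1 (VLA-4) binds VCAM-1, and α1β1 and α2β1 bind collagens. The αv subunit pairs with β1, β3 and other beta subunits, and some αv integrins release active TGF-β from its latent complex. TGF-β is in turn a known inducer of Itgae in lymphocytes.

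The Tgfbr2 f/f ER-Cre+ mice were on the C57BL/6 background. ILC2s were sorted as CD45+Lin-CD127+Sca-1+CD25+KLRG1+ cells from the intestinal lamina propria (LP). Their donors carried Tgfbr2 f/f with ER-Cre+ and received sunflower oil (WT, 4 libraries) or tamoxifen (Tgfbr2-/-, 3 libraries) for 5 days, so both groups had the floxed alleles and ER-Cre, a tamoxifen-activated recombinase that is not restricted to ILC2s. ILC2p were sorted as CD45.2+Lin-CD127+α4β7+CD25+ cells from the bone marrow (BM) of mixed marrow chimeras, Control/45.1 (WT, 4 libraries) or Tgfbr2-/-/45.1 (Tgfbr2-/-, 4 libraries), in which irradiated CD45.1 hosts had received CD45.1 marrow together with CD45.2 marrow of Tgfbr2 f/f ER-Cre+ donors. The donors of WT ILC2p had been given oil and those of Tgfbr2-/- ILC2p tamoxifen, again for 5 days, so these groups also shared the floxed alleles and ER-Cre. Each cell type was collected in 2 experiments. The libraries held 12997489 to 22350339 gene counts in WT ILC2s, 12167066 to 32114265 in Tgfbr2-/- ILC2s, 12276824 to 35961215 in WT ILC2p and 10957021 to 31993992 in Tgfbr2-/- ILC2p. The labels do not say that replicate libraries came from separate animals, so p-values measure the spread between these libraries.

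The targeted gene was examined first. Levels within a gene are given below as CPM (counts scaled by TMM to a common library size over all 15 libraries), in the order experiment 1 and then experiment 2. Tgfbr2 stood at 172, 262, 147 and 206 CPM in the libraries labelled WT ILC2 and at 206, 184 and 96.1 CPM in those labelled Tgfbr2-/- ILC2. In ILC2p it stood at 0.714 (8 counts), 233, 107 and 188 CPM in the libraries labelled WT and at 87.2, 130.0, 30.8 and 218 CPM in those labelled Tgfbr2-/-. Tgfbr2 thus did not separate the labelled genotypes in either cell type, and its lowest value was in a library labelled WT. The counts cover the whole transcript, so reads from exons outside a deleted part are still counted, and the genotypes below are those of the labels.

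Markers were then set against the labelled cell types, because the sum of RNA in a sorted population can come from more than one kind of cell. The 10 ILC2 markers, led by Gata3, were all detected in every LP ILC2 library and made up 0.606 to 1.00% of counts. In WT ILC2p they made up 0.666 to 0.765% of counts, and in Tgfbr2-/- ILC2p 0.222 to 0.305%. The 10 neutrophil and myeloid markers, led in Tgfbr2-/- ILC2p by the calprotectin gene S100a8, made up 5.84 to 6.32% of the counts of those 4 libraries against 0.0692 to 0.166% in WT ILC2p. S100a8 itself had 229509 to 663505 counts in the Tgfbr2-/- ILC2p libraries, 661 to 5906 in the WT ones and at most 14 in any LP ILC2 library. Mast cell and basophil markers also differed, with summed levels of 1210 to 1905 CPM in Tgfbr2-/- ILC2p and 111 to 298 CPM in WT ILC2p. The 4 Tgfbr2-/- ILC2p libraries therefore stand apart from the other 11, and all of them do so, in both experiments. In the LP ILC2 libraries T cell markers summed to 59.3 to 229.7 CPM, with overlap between the genotypes. There 5 B and plasma cell markers summed to 123 to 471 CPM in WT and 80.2 to 116 CPM in Tgfbr2-/- libraries, and 7 ILC1 and NK markers to 59.6 to 129 CPM in WT and 193 to 331 CPM in Tgfbr2-/- libraries, so neither sum overlapped between the genotypes. The 8 epithelial markers summed to 6.78, 15.9, 237 and 542 CPM in WT and to 43.85, 42.2 and 1439 CPM in Tgfbr2-/- ILC2 libraries. That sum was higher in the Tgfbr2-/- libraries within each experiment and overlapped over both experiments. The 7 stromal and endothelial markers summed to 19.2, 8.56, 23.2 and 179 CPM in WT and to 40.3, 26.3 and 29.3 CPM in Tgfbr2-/- ILC2 libraries. Every result on ILC2p below is given against the ILC2p marker background above. In bulk samples fewer cells of a type and less RNA per cell cannot be told apart.

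Promoters of the 3 members whose Tgfbr2-/- and WT ILC2p libraries did not overlap, and of Itgam as the integrin gene of the myeloid markers, are shown here so that their sequences can be set beside the values below. They are the 250 bases upstream of the transcription start in RefSeq (GRCm38.p6), printed on the gene's own strand. Of the 10 members 6 had an entry. The 4 motifs searched, on both strands, were GATAA (GATA factors), TGNGGT (RUNX factors), GAGGAA (PU.1) and CAGAC (SMADs), and capitals mark their matches.
Itga4, chr2:79255176-79255425, plus strand: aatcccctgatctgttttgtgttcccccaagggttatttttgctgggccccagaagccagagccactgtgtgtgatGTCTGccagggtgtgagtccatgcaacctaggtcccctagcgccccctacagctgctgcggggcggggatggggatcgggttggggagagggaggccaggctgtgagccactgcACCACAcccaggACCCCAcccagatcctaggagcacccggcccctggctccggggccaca
Itgb7, chr15:102231936-102232185, minus strand: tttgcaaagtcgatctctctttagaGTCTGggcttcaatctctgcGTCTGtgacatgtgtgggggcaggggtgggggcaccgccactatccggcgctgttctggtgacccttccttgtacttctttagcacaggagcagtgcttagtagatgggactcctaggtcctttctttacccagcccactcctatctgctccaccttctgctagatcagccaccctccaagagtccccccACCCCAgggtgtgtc
Itgav, chr2:83724147-83724396, plus strand: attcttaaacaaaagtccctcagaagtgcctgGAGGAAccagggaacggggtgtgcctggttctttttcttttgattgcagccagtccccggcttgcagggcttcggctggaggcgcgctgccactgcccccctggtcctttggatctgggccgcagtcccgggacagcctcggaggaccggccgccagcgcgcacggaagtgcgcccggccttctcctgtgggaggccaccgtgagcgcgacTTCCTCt
Itgam, chr7:128062390-128062639, plus strand: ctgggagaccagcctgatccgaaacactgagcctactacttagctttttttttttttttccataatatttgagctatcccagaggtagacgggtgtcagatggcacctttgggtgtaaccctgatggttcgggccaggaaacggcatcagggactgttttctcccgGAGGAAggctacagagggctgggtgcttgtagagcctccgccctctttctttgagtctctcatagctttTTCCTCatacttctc
The RUNX letters occurred 2 times in the Itga4 window and 1 time in that of Itgb7, which also held the SMAD letters, 1 time and 2 times respectively. The windows of Itgav and Itgam each held the PU.1 letters 2 times and neither the RUNX nor the SMAD letters. GATAA was found in none of the 4 windows. Among 32851 promoters of this length, 22.6% held GATAA, 40.1% the RUNX letters, 23.3% the PU.1 letters and 42.2% the SMAD letters, so none of the motifs is rare. A match is a match of letters and was not tested as a binding site.

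Levels of different genes were compared in RPKM, which divides by transcript length. Itgb7, the beta subunit shared by α4β7 and αEβ7, was the most abundant member in LP ILC2s by a wide margin. It stood at 641, 768, 680.3 and 608 RPKM in the WT ILC2 libraries and at 746, 639 and 579.7 RPKM in the Tgfbr2-/- ones. Itgb7 thus supplied 71.0% of the summed mean RPKM of the 10 members in WT ILC2s and 71.0% in Tgfbr2-/- ILC2s, and 67.0% in WT ILC2p. In Tgfbr2-/- ILC2p its share was 37.2% and that of Itgb2, the beta subunit of LFA-1 and of the myeloid integrin Mac-1, 41.4%. Their ranges overlapped there, at 173 to 281 RPKM for Itgb7 and 105 to 418 RPKM for Itgb2, so no order between them is given.

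**Figure D1:**
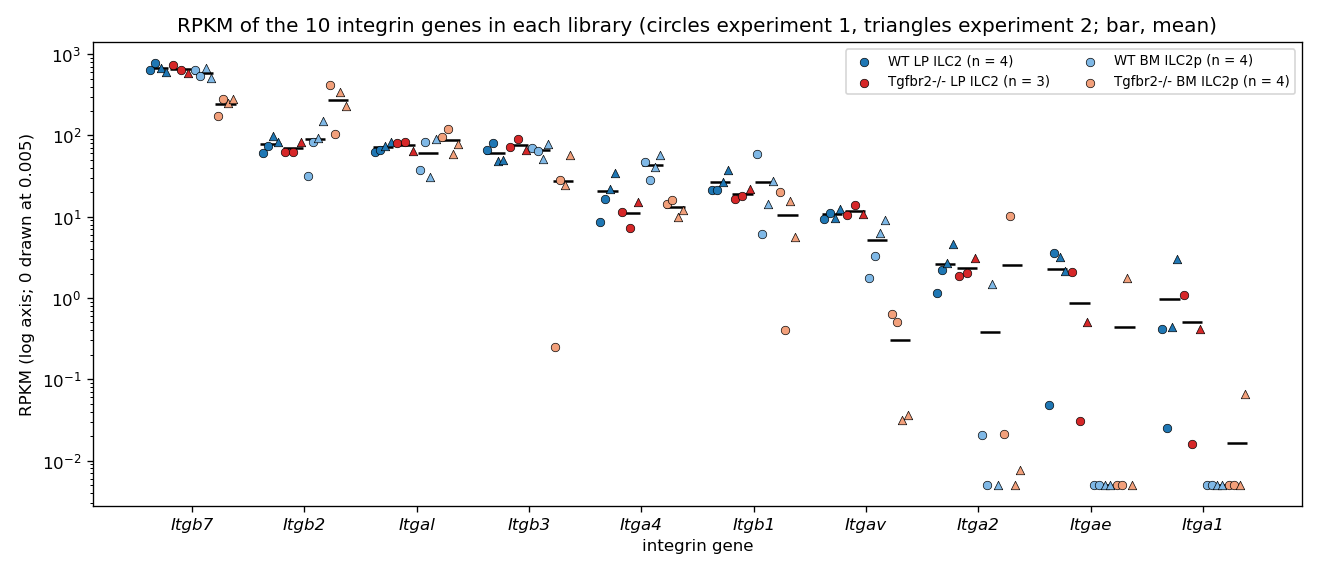
Deposited RPKM (log axis) of the 10 integrin genes in each of the 15 libraries, by cell type and labelled genotype; bars mark group means and values of 0 are drawn at the bottom. Itgb7 leads in LP ILC2s and WT ILC2p and overlaps Itgb2 in Tgfbr2-/- ILC2p, and Itgae, Itga1 and Itga2 sit lowest in ILC2s.

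Below Itgb7, a set of members held intermediate levels in WT ILC2s: Itgb2 had a mean of 79.2 RPKM, Itgal (the alpha subunit of LFA-1) 71.4 RPKM and Itgb3 61.3 RPKM. Their ranges overlapped one another, so no order among them is given. Itgb1, the beta subunit of the VLA family, followed with a mean of 26.9 RPKM and overlapped Itga4 with 20.5 RPKM. Itgav had a mean of 10.7 RPKM with a narrow range of 9.42 to 12.4 RPKM, apart from the genes below it. Itga2, Itgae and Itga1, the alpha subunits of the collagen and E-cadherin receptors, had means of 2.65, 2.25 and 0.983 RPKM, and their ranges overlapped.

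The partners of a pair were not equally abundant. Itgb7 exceeded Itga4 17.5 to 74.6 times in RPKM in WT ILC2s, 38.7 to 87.9 times in Tgfbr2-/- ILC2s, 8.91 to 19.4 times in WT ILC2p and 11.9 to 25.7 times in Tgfbr2-/- ILC2p. Itgb2 and Itgal were close to equal in LP ILC2s, with a ratio of 0.966 to 1.33 in WT and 0.755 to 1.27 in Tgfbr2-/- libraries. In Tgfbr2-/- ILC2p that ratio reached 5.86 and its median was 3.67, against 1.32 in WT ILC2p, and the ranges of the ratio overlapped. The Itgb3 to Itgav ratio was 4.07 to 7.18 in WT ILC2s, 6.20 to 6.89 in Tgfbr2-/- ILC2s and 8.06 to 39.7 in WT ILC2p, while in Tgfbr2-/- ILC2p, where Itgav had 5 to 49 counts, it ran from 0.399 to 1557.

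In LP ILC2s, none of the 10 integrin genes passed the test between Tgfbr2-/- and WT libraries. The test was edgeR's quasi-likelihood test with the experiment as a covariate, and a gene was called at an adjusted p under 0.1 and a fold change over 1.5. This rule called 1 of 11981 genes tested, or 0.00835%, namely Gzmc, which encodes a granzyme; 952 genes had an unadjusted p under 0.05 and DESeq2 called 338 genes, none of them a member. The smallest adjusted p among the members was 0.616 and 1 member had an unadjusted p under 0.05. Of the 10 log2 fold changes 3 were positive and 7 negative, with a median of -0.18 against -0.05 over all genes tested.

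Itgb7, Itgal and Itgav had overlapping genotypes in ILC2s. The level of Itgb7 was 1723, 1967, 1549 and 1382 CPM in the WT libraries, against 1769, 1639.6 and 1321 CPM in Tgfbr2-/- ILC2s. Its log2 fold change was -0.16 (SE 0.12). Itgal, at 327, 327, 332 and 369.5 CPM in the WT libraries, against 375, 411 and 287 CPM in Tgfbr2-/- ILC2s, gave 0.03 (SE 0.17). Itgav, at 66.9, 75.2, 58.1 and 74.2 CPM in the WT libraries, against 66.1, 95.0 and 65.0 CPM in Tgfbr2-/- ILC2s, gave 0.08 (SE 0.26).

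Itgb1 was the member whose ILC2 groups did not overlap. It stood at 89.2, 85.9, 96.8 and 135 CPM in the WT libraries, against 61.1, 72.5 and 79.5 CPM in Tgfbr2-/- ILC2s, so every Tgfbr2-/- library was below every WT library. Of all genes tested 2.31% showed this pattern and 3.07% the opposite one. The B and plasma cell and the ILC1 and NK marker sums separated the same libraries. The epithelial marker sum was higher in the Tgfbr2-/- libraries within each experiment. The WT library at 135 CPM had the highest stromal and endothelial marker sum of the ILC2 libraries. The part of these markers in the Itgb1 value was not tested. The log2 fold change was -0.47 (SE 0.24), with an adjusted p of 0.635 by edgeR. The exact two-sided permutation test of genotype within experiments gave p = 0.111 and 0.370 after Benjamini-Hochberg adjustment over 20 tests, and 0.0556 is the smallest p that design can give.

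Itga4 had the largest negative value among the members with more than 1000 counts in each ILC2 library. It stood at 83.5, 154, 182 and 286 CPM in the WT libraries, against 97.8, 67.5 and 123 CPM in Tgfbr2-/- ILC2s, with overlap between the groups. The log2 fold change was -0.70 (SE 0.29, adjusted p = 0.616 by edgeR). Within experiment 1 the libraries overlapped, and within experiment 2 the single Tgfbr2-/- library was below both WT libraries. Itgb2 and Itgb3 gave -0.21 (SE 0.18) and 0.18 (SE 0.18). Per 1000 counts of the 10 ILC2 markers, Itgb3 was higher in the Tgfbr2-/- libraries within both experiments, by 0.38 in mean on the log2 scale (p = 0.0556 by the exact permutation test, the smallest possible, and 0.371 after adjustment over 20 tests), with overlap between the groups over both experiments.

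**Figure D2:**
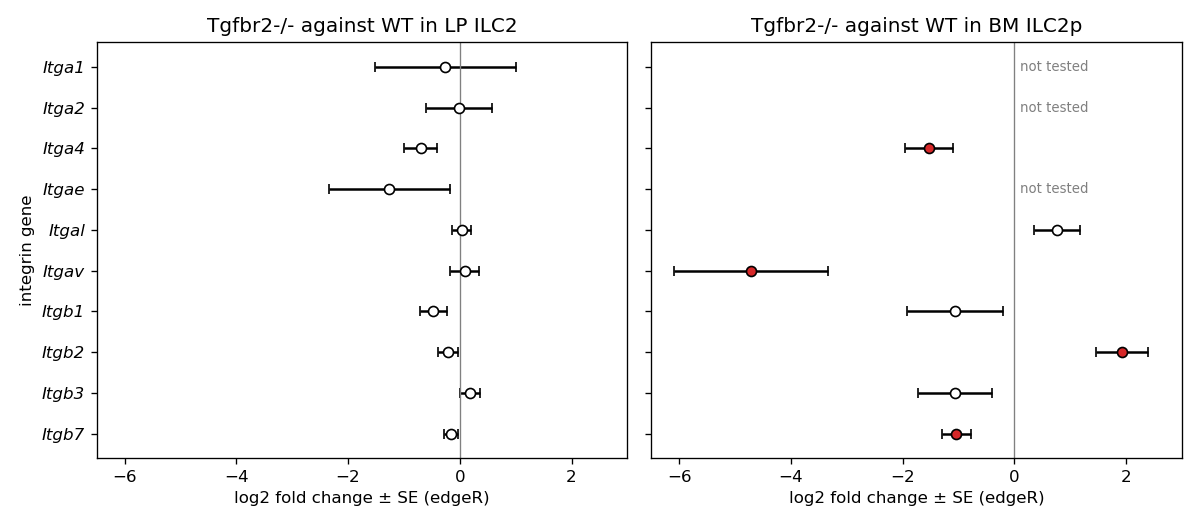
Log2 fold change (Tgfbr2-/- against WT, edgeR) of each integrin gene in LP ILC2s and in BM ILC2p; points are estimates, bars are 1 SE, and filled red points are called. The ILC2 estimates of Itgb7, Itgal and Itgav lie near 0, while in ILC2p Itgb2 is to the right and Itgb7, Itga4 and Itgav are to the left on this scaling to all counts; scaled to ILC2 markers Itgb7 is at 0.27, where the median of all genes is 1.30.

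Of the 3 low alpha subunits, Itgae and Itga1 could not be compared with any precision in ILC2s, because their reads were concentrated in some libraries. Itgae, the αE subunit, had 4, 273, 204 and 98 counts in WT and 219, 3 and 25 counts in Tgfbr2-/- ILC2s. Itga1 had 53, 3, 41 and 223 counts in WT and 179, 3 and 29 counts in Tgfbr2-/- ILC2s. Both genes were therefore high in some libraries of each genotype and at 3 or 4 counts in others. Their log2 fold changes were -1.26 (SE 1.09) and -0.26 (SE 1.27). Itga2 was steadier, at 4.86, 8.89, 9.57 and 16.5 CPM in the WT libraries, against 6.88, 8.19 and 11.2 CPM in Tgfbr2-/- ILC2s, and gave -0.01 (SE 0.58) with overlapping groups.

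**Figure D3:**
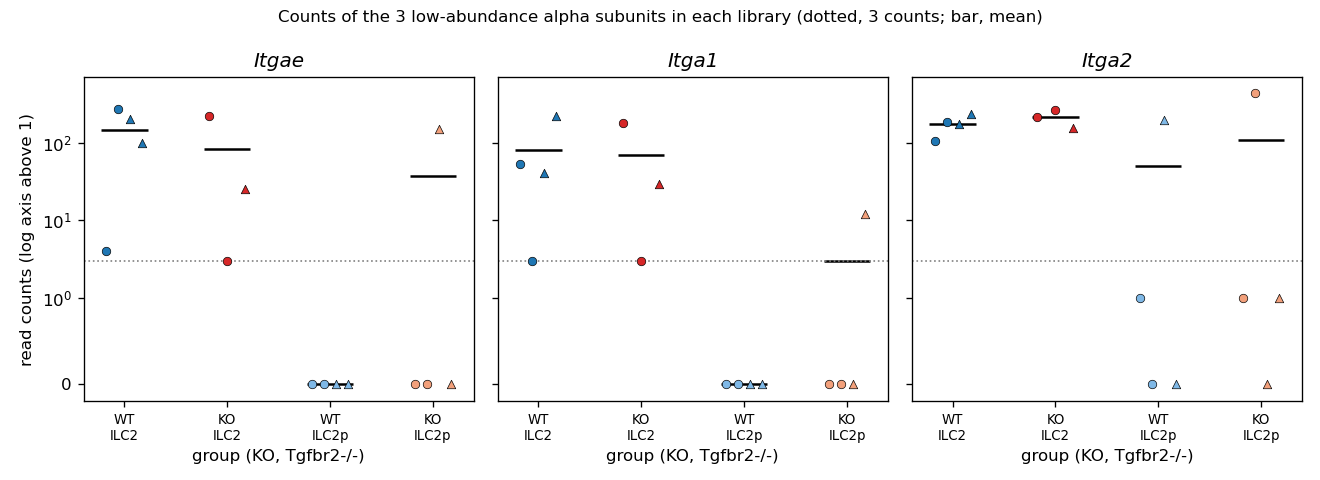
Counts of Itgae, Itga1 and Itga2 in each of the 15 libraries, by cell type and labelled genotype, with a dotted line at 3 counts (log axis above 1; circles experiment 1, triangles experiment 2, bars group means). All 7 ILC2 libraries are at or above the line for the 3 genes, and each gene is at or under the line in at least 6 of the 8 ILC2p libraries.

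In BM ILC2p, 4 of the 7 integrin genes tested passed the same test: Itgb2 was higher and Itgb7, Itga4 and Itgav were lower in the Tgfbr2-/- libraries, relative to all counts. Scaled to ILC2 markers instead, Itgb7 turned to a small positive value, which lay below the median of all genes, and Itga4 (-0.24) and Itgav (-3.58, adjusted p = 0.110 by edgeR) were no longer called. The rule called 535 of 9242 genes tested, or 5.79%, with 414 higher and 121 lower. With library size scaling the split was 359 higher and 209 lower, and with upper quartile scaling 338 higher and 234 lower. The members' median log2 fold change was -1.06 against 0.05 over all genes. Itga1, Itga2 and Itgae did not pass the filter on low counts and were not tested. Itgav passed it through its WT libraries, where it was high, and its call is given with that limit.

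Itgb7 fell in this comparison of all counts. It stood at 1766, 1220.1, 1614 and 1104 CPM in WT ILC2p and at 509, 774, 652 and 894 CPM in Tgfbr2-/- ILC2p. Every Tgfbr2-/- library was below every WT library, a pattern that 3.84% of all genes tested showed, against 6.28% for the opposite one, and that held for 3 of the 10 members, Itgb7, Itga4 and Itgav. The log2 fold change was -1.04 (SE 0.26, adjusted p = 0.0474 by edgeR). Within experiments the difference in mean log2(CPM + 1) was -1.22 and -0.81. The call was kept in 4 of the 8 fits that left out 1 library and was lost without replicate 1 of either genotype in either experiment, with log2 fold changes from -0.98 to -0.89 in those fits (adjusted p from 0.127 to 0.207 by edgeR). It was also lost with DESeq2 (-0.93, adjusted p = 0.108).

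Itga4, which pairs with Itgb7 in the α4β7 that defined the ILC2p sort gate, moved in the same direction. It stood at 471, 227, 357 and 448 CPM in WT ILC2p and at 154, 162, 91.6 and 138 CPM in Tgfbr2-/- ILC2p, with no overlap. The log2 fold change was -1.53 (SE 0.43, adjusted p = 0.0800 by edgeR). Within experiments the difference in mean log2(CPM + 1) was -1.05 and -1.82. Of the 8 fits that left out 1 library, the call was kept only without replicate 2 of WT experiment 1, and across all 8 the log2 fold change ranged from -1.78 to -1.33. Neither limma on RPKM, edgeR's legacy method nor a fit with no filter on low counts called Itga4 or Itgav. Since both populations were gated on α4β7 protein, these are levels in cells already selected for it.

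Itgav, the αv subunit, had the widest difference. It stood at 13.0, 19.6, 39.8 and 52.6 CPM in WT ILC2p, or 146, 337, 1407 and 2171 counts. In Tgfbr2-/- ILC2p it stood at 4.86, 3.73, 0.212 and 0.309 CPM, or 49, 36, 5 and 8 counts. The groups did not overlap, and within the Tgfbr2-/- libraries experiment 2 lay below experiment 1. The log2 fold change was -4.72 (SE 1.38, adjusted p = 0.0893 by edgeR), and in none of the 8 fits that left out 1 library was it called, with values from -5.65 to -3.92. Within experiments the difference in mean log2(CPM + 1) was -1.69 and -5.21. When at least 10 counts were required in every library, Itgav was not tested.

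Itgb2 rose. It stood at 94.8, 198, 239 and 351 CPM in WT ILC2p and at 1313, 313, 949 and 779 CPM in Tgfbr2-/- ILC2p. The groups overlapped over both experiments, since 313 CPM in experiment 1 was under 351 CPM in experiment 2, but within each experiment both Tgfbr2-/- libraries were above both WT libraries. The log2 fold change was 1.93 (SE 0.46, adjusted p = 0.0390 by edgeR), and the differences in mean log2(CPM + 1) within experiments were 2.22 and 1.57. The call was lost in 4 of the 8 fits that left out 1 library, namely either WT library of experiment 1, replicate 1 of the Tgfbr2-/- libraries of experiment 1 or replicate 1 of the WT libraries of experiment 2 (log2 fold changes from 1.36 to 1.98). It was also lost with upper quartile scaling (1.60, adjusted p = 0.107 by edgeR) and with limma on RPKM (1.62, adjusted p = 0.148). With 1 experiment alone no member was called. Exact two-sided permutation of genotype within experiments gave p = 0.0556 for each of Itgb2, Itgb7, Itga4 and Itgav, the smallest that these 36 arrangements can give, and 0.278 after adjustment over 20 tests.

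The remaining 3 members tested in ILC2p did not pass. Itgal stood at 202, 365, 143 and 386 CPM in the WT libraries, against 541, 648, 295 and 487 CPM in Tgfbr2-/- ILC2p, with overlap, and gave 0.76 (SE 0.41, adjusted p = 0.404 by edgeR). Itgb3 stood at 423, 309, 263 and 364 CPM in the WT libraries, against 1.59, 170.2, 138 and 394 CPM in Tgfbr2-/- ILC2p, where 1 library had 16 counts and another lay within the WT range. Itgb1 stood at 259, 21.3, 53.7 and 92.2 CPM in the WT libraries, against 92.4, 1.76, 62.6 and 28.4 CPM in Tgfbr2-/- ILC2p. Both genes overlapped between the genotypes, and gave -1.06 (SE 0.66) and -1.06 (SE 0.86).

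The low alpha subunits were near 0 in ILC2p. Itga1 had 0 counts in 7 of 8 libraries and 12 counts in 1 Tgfbr2-/- library of experiment 2. Itgae had 0 counts in 7 of 8 libraries and 150 counts in 1 Tgfbr2-/- library of experiment 2. Itga2 had 1, 0, 199 and 0 counts in WT and 1, 434, 0 and 1 counts in Tgfbr2-/- ILC2p. For Itga1, Itga2 and Itgae no group of ILC2p libraries held reads throughout. A count of 0 allows up to 3 counts, which is 0.0727 to 0.311 CPM in these libraries, and these limits cover counting error only.

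The same ILC2p values were then set against the ILC2 markers, since those markers took a smaller share of the counts in Tgfbr2-/- ILC2p. Their sum was led by Gata3 and held Il1rl1, which the study reports as lowered by Tgfbr2 loss. Of the 9 markers tested in ILC2p 2 were called lower, Gata3 and Il1rl1, and 7 were not called. The scale thus holds genes that differed with genotype, and their part in the ratios was not tested. Per 1000 counts of the 10 ILC2 markers, Itgb7 stood at 211, 197, 238 and 190.2 in WT and at 194, 308, 265 and 237 in Tgfbr2-/- ILC2p, and the groups overlapped. The mean difference was 0.25 on the log2 scale (p = 0.333 by the exact permutation test), where the comparison of all counts had given a negative value. Itga4 stood at 56.2, 36.6, 52.5 and 77.1 in WT and at 58.7, 64.4, 37.3 and 36.6 in Tgfbr2-/- ILC2p, with a difference of -0.17 (p = 0.667 by the exact permutation test). Neither gene separated the genotypes on this scale.

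Itgb2 and Itgal were the members whose genotypes did not overlap on the marker scale. Per 1000 ILC2 marker counts Itgb2 stood at 11.3, 31.9, 35.2 and 60.4 in WT and at 499.9, 124, 386 and 207 in Tgfbr2-/- ILC2p. Itgal stood at 24.1, 58.9, 21.1 and 66.5 in WT and at 206, 258, 120.3 and 129 in Tgfbr2-/- ILC2p. Every Tgfbr2-/- library was above every WT library for both genes, a pattern that 19.4% of all genes tested showed on this scale, against 1.31% for the opposite one. Each gave p = 0.0556 by the exact permutation test, the smallest possible, and 0.371 after adjustment over 20 tests. Itgav stayed lower in mean, at 1.55, 3.16, 5.86 and 9.06 in WT and 1.85, 1.48, 0.0865 and 0.0821 in Tgfbr2-/- ILC2p, with overlap between the groups. Per 1000 counts of Il7r and Il2ra, which encode CD127 and CD25 of the sort gate, every Tgfbr2-/- library was below every WT library for Itgav, at 7.36, 7.24, 0.311 and 0.385 against 8.35, 15.7, 27.9 and 46.9, and above it for Itgb2 and Itgal. On that scale 1.5% of all genes tested were below and 16.0% above. In edgeR fits scaled to the ILC2 markers the median log2 fold change of all genes was 1.30, and 2396 of 9242 genes, or 25.9%, were called, 2325 of them higher. Itgb2 and Itgal were the 2 of 7 members called, both higher, a share close to that of all genes, while Itgb7 was at 0.27 (adjusted p = 0.444).

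**Figure D4:**
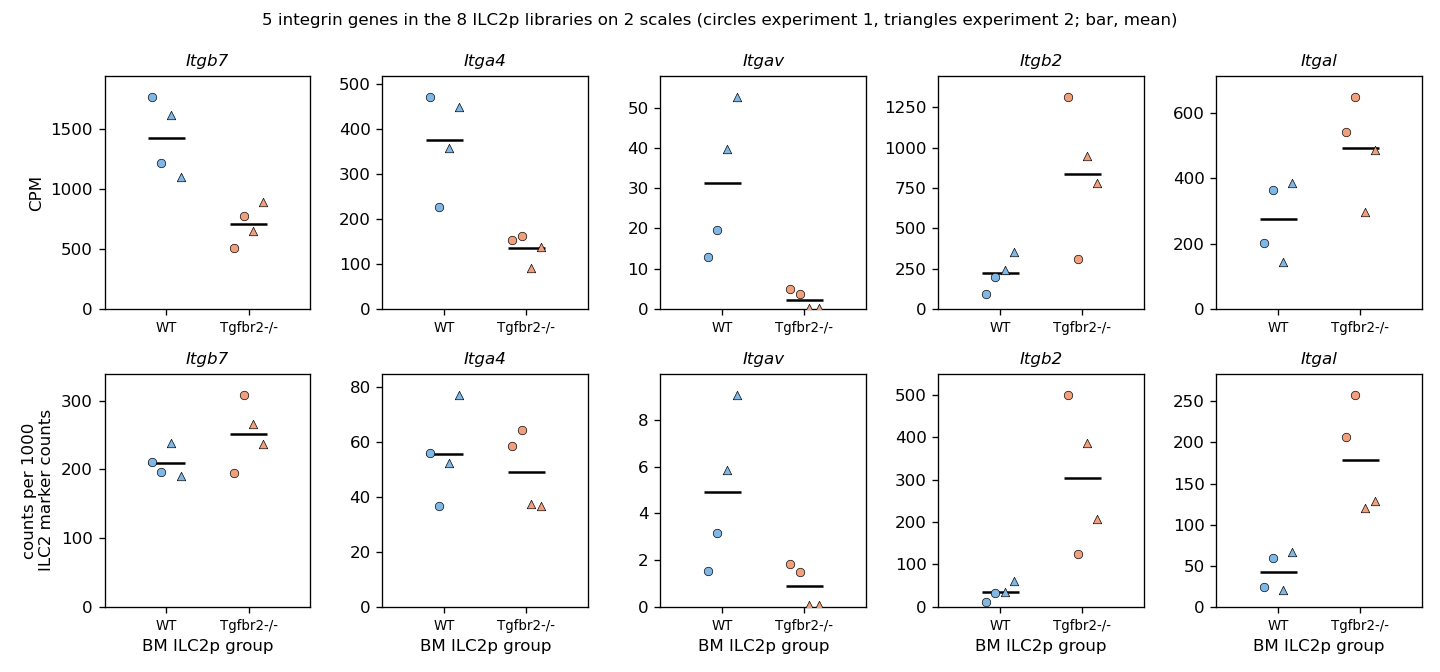
Itgb7, Itga4, Itgav, Itgb2 and Itgal in the 8 BM ILC2p libraries, as CPM and as counts per 1000 counts of the 10 ILC2 markers (linear axes from 0), by labelled genotype; circles are experiment 1, triangles experiment 2 and bars group means. The genotypes are apart for Itgb7 and Itga4 in CPM and overlap on the marker scale, while Itgb2 and Itgal are apart on the marker scale.

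Genes of myeloid cells were higher in the same 4 libraries as Itgb2. Per the study's methods, the lineage antibodies by which cells were removed in ILC staining included CD11b, the product of Itgam, and Gr-1. Itgam, the αM subunit that pairs with Itgb2 in Mac-1, had 0 counts in all 7 LP ILC2 libraries and stood at 1.16, 0.232, 2.04 and 1.16 CPM in WT ILC2p. In Tgfbr2-/- ILC2p it stood at 192, 332, 429 and 381 CPM, with no overlap (log2 fold change 8.08, SE 0.76, adjusted p = 1.9e-05 by edgeR). Itgb2l, a gene related to Itgb2, stood at 1.81 CPM or less in WT and at 339, 15.5, 314 and 319.7 CPM in Tgfbr2-/- ILC2p, where 1 library of experiment 1 was far below the other 3. In the same order the sum of the 10 myeloid markers was 74897, 66300, 63008 and 74648 CPM and Itgb2 stood at 1313, 313, 949 and 779 CPM. All 10 myeloid markers were higher in Tgfbr2-/- ILC2p, and their part in the Itgb2 result was not tested.

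**Figure D5:**
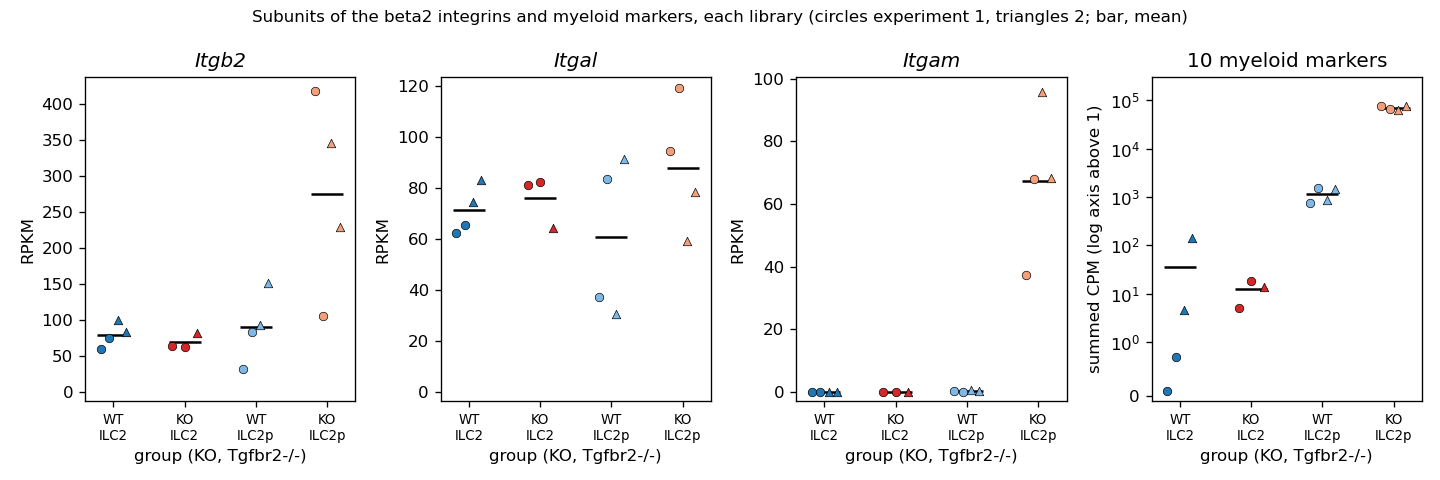
Itgb2, Itgal and Itgam (RPKM) and the summed CPM of 10 neutrophil and myeloid markers, Itgam among them, in each of the 15 libraries; the RPKM axes are linear from 0, the axis of the marker sum is a log axis above 1, and bars mark group means. Itgam and the marker sum are high in the 4 Tgfbr2-/- ILC2p libraries, where Itgb2 ranges from 105 to 418 RPKM, and Itgam is at 0 in all LP ILC2 libraries.

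Whether the genotype difference itself differed between ILC2s and ILC2p was tested as an interaction over all 15 libraries, which called 204 of 12806 genes, or 1.59%. Among the members 1 was called, Itgav, with a log2 fold change in ILC2s that exceeded that in ILC2p by 4.66 (SE 1.19, adjusted p = 0.0889 by edgeR). The fit took the same spread for both cell types, and its SE was below the 1.38 of the ILC2p fit alone. Itgav varied more between ILC2p libraries than between ILC2 libraries, so this adjusted p may be too small. Itgav was called in 4 of the 15 fits that left out 1 library, each of them without an ILC2p library of experiment 1, and lost the call without any of the other 11 libraries (3.91 to 4.78). The call was also lost with limma on RPKM (2.24, adjusted p = 0.299), ILC2 marker scaling (3.71, adjusted p = 0.147 by edgeR), Il7r and Il2ra scaling (3.69, adjusted p = 0.158 by edgeR), the legacy method and a fit with no filter on low counts. The difference was -2.17 for Itgb2 (adjusted p = 0.117 by edgeR) and 0.88 for Itgb7 (adjusted p = 0.191 by edgeR), so for these genes a difference between cell types was not shown. For Itgb7 it was called with library size scaling (1.18, adjusted p = 0.0371 by edgeR), with upper quartile scaling (1.24, adjusted p = 0.0221 by edgeR), with at least 10 counts in every library (1.02, adjusted p = 0.0577 by edgeR) and with limma on RPKM (1.20, adjusted p = 0.0273). For Itgb2 it was called with DESeq2 (-2.36, adjusted p = 0.0311), with ILC2 marker scaling (-3.24, adjusted p = 0.0165 by edgeR), with Il7r and Il2ra scaling (-3.18, adjusted p = 0.0158 by edgeR) and in 2 of the 15 fits that left out 1 library, without replicate 2 of Tgfbr2-/- experiment 1 or of WT experiment 2 of the ILC2p (adjusted p = 0.0440 and 0.0988 by edgeR). The marker scalings moved the median of this difference over all genes from 0.04 to -0.99 and -0.98, so with them the values of all genes are shifted alike.

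Between cell types, LP ILC2s were compared with BM ILC2p over both genotypes, and tissue, mouse model, sort gate and experiment all changed with cell type and cannot be told apart. The test called 1810 of 12806 genes, or 14.1%. Of the 7 members that passed the filter on low counts in both cell types it called 3: Itgav and Itgb7 were higher and Itgb2 was lower in ILC2s. Itga1, Itga2 and Itgae passed it only through the ILC2 libraries and are given by their values. Itgav was the clearest, at 58.1 to 95.0 CPM (median 66.9) in the 7 ILC2 libraries and 0.212 to 52.6 CPM (median 8.94) in the 8 ILC2p libraries. It was the member for which every ILC2 library was above every ILC2p library, as 2.94% of all genes were, while 0.921% were below, and its log2 fold change was 3.36 (SE 0.53, adjusted p = 0.000281 by edgeR). Itga1, at 0.0924 to 15.5 CPM in ILC2s, had 0 counts in 7 of the 8 ILC2p libraries. Itgav, Itgb7 and Itgb2 kept their calls in all 15 fits that left out 1 library. Itgb7 lost its call with DESeq2 (0.58, which is under the fold threshold) and turned to -0.06 with ILC2 marker scaling, where the median of all genes was -0.78. Itgb2 lost its call with limma on RPKM (-0.91, adjusted p = 0.109), without experiment 2 of the ILC2s (-1.30, adjusted p = 0.103 by edgeR) and without experiment 2 of the ILC2p (-0.90, adjusted p = 0.125 by edgeR). Without experiment 1 of the ILC2s none of the members was called. Itgb7 gave 0.69 (SE 0.15, adjusted p = 0.00809 by edgeR) and Itgb2 -1.18 (SE 0.30, adjusted p = 0.0185 by edgeR).

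Each genotype was then fitted alone, and whether the genotypes differed in this is the interaction tested above. In the WT libraries 558 of 10468 genes, or 5.33%, and none of the members were called, with log2 fold changes of 0.99 for Itgav (adjusted p = 0.348 by edgeR), 0.23 for Itgb7 (adjusted p = 0.643 by edgeR) and -0.13 for Itgb2 (adjusted p = 0.909 by edgeR). In the Tgfbr2-/- libraries the values were 5.61 for Itgav, 1.06 for Itgb7 and -2.34 for Itgb2, and these 3 of 9 members tested were called, against 2186 of 11469 genes, or 19.1%. In this fit Itgav passed the filter on low counts only through the ILC2 libraries. Its Tgfbr2-/- libraries stood at 65.0 to 95.0 CPM in ILC2s and 0.212 to 4.86 CPM in ILC2p, so its call carries that limit. WT ILC2p reached 52.6 CPM of Itgav, close to the lowest ILC2 library at 58.1 CPM. Itga4 and Itgb7 encode the α4β7 of the ILC2p gate, and their levels between cell types are given as a description.

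Genes whose pattern over the 15 libraries was most like that of the 3 low alpha subunits were named by the smallest mean absolute difference of centred log2 CPM among 12805 genes. For Itgae these were Ncmap (0.42), H2-Ob (0.46) and Egr3 (0.48), where Itgae itself deviated from its mean by 1.40 on average. For Itga1 they were Lrrc29 (0.31), Dclk2 (0.31) and Irak1bp1 (0.34), and for Itga2 Ift80 (0.56), Syne4 (0.56) and 9230102O04Rik (0.64). Nothing on function follows from the likeness.

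The other 17 integrin subunit genes were mostly too low to test. In LP ILC2s 6 of them were tested and none passed, among them Itga5 (1.34, SE 0.94) and Itga6 (1.77, SE 1.39). In ILC2p, where 5.79% of all genes tested were called, 3 were tested, of which Itgam and Itgb2l rose and Itga5 gave 1.84 (SE 1.25). Itgb4, a hemidesmosome subunit of epithelium, had 0 to 628 counts in the ILC2 libraries and 0 to 103 in the ILC2p libraries, with the highest count in a WT ILC2 library of experiment 1. That library had the lowest sum of epithelial markers of the 7 ILC2 libraries, 6.78 CPM, and a WT library of experiment 2 with a sum of 542 CPM had 0 counts of Itgb4. The highest sum, 1439 CPM, was in the Tgfbr2-/- library of experiment 2, which had 92 counts of Itgb4. The source of these reads was not tested.

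Integrins are switched to their active state from inside the cell by talin, kindlin and Rap1. Of the 24 genes of this inside-out machinery, 22 were tested in LP ILC2s and none passed (median log2 fold change -0.25). In ILC2p 21 were tested, of which 2 rose and 1 fell (median -0.03), where 5.79% of all genes tested were called. Skap2, an adaptor of integrin activation in myeloid cells, stood at 0.535, 0.697, 1.16 and 3.59 CPM in the WT libraries, against 144, 123, 86.2 and 148 CPM in Tgfbr2-/- ILC2p, with no overlap (log2 fold change 5.93, SE 0.88). Flna, filamin A, which binds beta subunit tails, rose by 1.89 (SE 0.38), and Slc3a2, the CD98 heavy chain that associates with beta subunits, fell by 1.20 (SE 0.29). The talin gene Tln1 gave 1.19 (SE 0.40, adjusted p = 0.142 by edgeR) and the kindlin gene Fermt3 -0.21 (SE 0.30), and neither passed.

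Genes that link integrins to actin and signal inward followed. In LP ILC2s 20 of 22 were tested and none passed. In ILC2p, with the same 5.79% of all genes called, 17 were tested and 3 rose, with a median log2 fold change of 1.02 against 0.05 over all genes: Vcl (vinculin, 4.07, SE 0.93), Actn1 (α-actinin 1, 5.73, SE 0.94) and Zyx (zyxin, 1.15, SE 0.31). Of 18 integrin ligands, 13 were tested in ILC2s and none passed, and 5 were tested in ILC2p, where Fn1 (fibronectin, 6.37, SE 0.98) and Thbs1 (thrombospondin 1, 8.37, SE 1.15) rose. Madcam1 and Vcam1, ligands that vascular cells display, were not tested in ILC2p.

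Among 11 residency and egress genes, none passed in LP ILC2s. In ILC2p, where 5.79% of all genes were called, 9 of the list were tested, and of those reported here 2 fell, Cxcr6 and Rgs1. Cxcr6, a chemokine receptor of tissue lymphocytes, stood at 1196, 765, 832 and 633 CPM in the WT libraries, against 249, 217, 285 and 229 CPM in Tgfbr2-/- ILC2p, and fell by 1.81 (SE 0.31) relative to all counts. Rgs1, a regulator of chemokine receptor signalling, fell by 1.76 (SE 0.40), and Cd69, which retains lymphocytes in tissue, gave -1.26 (SE 0.57, adjusted p = 0.291 by edgeR). The ILC2 markers Gata3 and Il1rl1 fell by 1.40 (SE 0.28) and 1.95 (SE 0.26) in the same libraries.

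The genes of TGF-β activation and feedback closed the set, since αv integrins act upstream of the receptor. In LP ILC2s 15 of 17 were tested and none passed, with a median log2 fold change of -0.28. In ILC2p 10 were tested and none passed, with a median of -0.80. Smad7, a feedback inhibitor of TGF-β signalling, came nearest with -5.50 (SE 1.61, adjusted p = 0.101 by edgeR) in ILC2p and gave -1.23 (SE 0.35, adjusted p = 0.562 by edgeR) in ILC2s. Runx3, a transcription factor of Itgae in T cells, gave -0.69 (SE 0.80) in ILC2p and -0.19 (SE 0.23) in ILC2s.

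The same lists were read between cell types, where 14.1% of all genes were called, and the called genes named are those that passed the filter on low counts in both cell types. These values average both genotypes, so they include the Tgfbr2-/- ILC2p libraries with high myeloid markers. Fits to the WT libraries alone are not given for these lists. Of the inside-out genes 1 of 22 was higher in ILC2s, Slc3a2 (0.72, SE 0.18), and 2 were lower, Rasa3 (a Rap1 inhibitor, -2.05, SE 0.56) and Flna (-1.89, SE 0.25). Of the 20 actin linkage and signalling genes tested 2 were higher, of which the adaptor gene Nedd9 (1.45, SE 0.41) is named. Actn1 (-2.84, SE 0.71) and Zyx (-0.996, SE 0.23) were lower. Among the ligands 1 of 15 was called, Adam8 (-1.31, SE 0.30). Of the 11 residency and egress genes tested 3 were higher in ILC2s, of which Cd69 (1.71, SE 0.31) and Rgs1 (1.76, SE 0.21) are named. Klf2, a transcription factor of egress receptors, was lower (-1.50, SE 0.31). S1pr1, also of this list, had means of 7.06 CPM (WT ILC2s) and 2.61 CPM (Tgfbr2-/- ILC2s). For ILC2p its means were 2.21 CPM (WT, where 1 library stood at 8.82 CPM) and 0.0734 CPM (Tgfbr2-/-). The Cxcr6 mean was lower in ILC2s than in ILC2p among WT libraries (581 against 856 CPM). Among Tgfbr2-/- libraries it was higher (403 against 245 CPM). Of the 15 TGF-β genes tested 4 were higher and none lower, and of these Smad7 (3.80, SE 0.77) and Runx3 (1.20, SE 0.42) are named. Among the genes of these lists reported here the interaction test, which called 1.59% of all genes, called Skap2, Flna, Vcl, Actn1, Fn1 and Thbs1, each with a lower genotype log2 fold change in ILC2s than in ILC2p.

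The members are placed here on mm9 (NCBIM37), the build of the deposited counts. Itgb7 lies on the minus strand of chromosome 15 (102046426 to 102062366) and Itgb2 on the plus strand of chromosome 10 (76992997 to 77028453). Itga4 (79095583 to 79173280) and Itgav (83564554 to 83647073) both lie on the plus strand of chromosome 2, and Itga2 (115626124 to 115722249) and Itga1 (115748287 to 115892172) are neighbours on the minus strand of chromosome 13. In this annotation Itga1 overlaps Pelo on its own strand, and Itga4, Itgae and Itgav overlap genes on the opposite strand. Regions shared by differently named genes were left out by the settings of the counting program.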

How the data were processed

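RNA-seq was available for 15 libraries. Reads had been mapped to mm9 with TopHat, per the study's methods, and Bowtie2 stands in the submitters' processing notes. The authors deposited raw read counts per gene over full transcripts of RefSeq genes, made with the rpkmforgenes program, and RPKM values per gene from the same program; overlapping regions shared by differently named genes were left out by its settings. From the counts, differences were fitted with edgeR 4.0.16 (TMM, filterByExpr, quasi-likelihood F test, R 4.3.3) with Benjamini-Hochberg adjustment over all genes tested. Genotype fits used each cell type alone with experiment as covariate, and the cell type and interaction fits used all libraries. SE is the log2 fold change divided by the root of F. RPKM, which gives levels between genes, was tested only as an alternative with limma 3.58.1 on log2(RPKM + 1). DESeq2 1.42.0 and other scalings were further alternatives, and the closing section gives their effect. Single genes were also tested by exact permutation of genotype within experiments on log2(CPM + 1). Fits were tested on simulated data. All 10 members are named; from other lists, genes called (at most 5 per list and comparison by p), defining markers and Tgfbr2, while some uncalled genes were added after their values were seen. The members and lists were chosen with earlier results of these data known. No set test was run. Replicate numbers were not treated as pairs. For the 4 ILC2p libraries of experiment 1, the library number in the title and that in the deposited file differ in the order of their digits, and each file was taken for the sample under which it was deposited. For 1 gene of the residency and egress list, results are not reported here, and its list is described by the other genes.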

Additional observations from a re-analysis of the deposited data

Results flagged for a closer look

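In 6 of the 30 groups of 4 libraries examined, 1 library stood far from the other 3 by Dixon's criterion, which chance alone meets in about 1 group in 20. That rate does not hold for groups at 0 throughout or at 0 or 1 counts apart from 1 library, as for Itga1, Itga2 and Itgae in ILC2p. The count of 6 is therefore not read against it. Itga1 was at 15.5 CPM in 1 WT ILC2 library of experiment 2, where the other 3 were at 0.144 to 2.48 CPM, and at 0.464 CPM in 1 Tgfbr2-/- ILC2p library, where the others were at 0. The WT ILC2 library at 15.5 CPM also had the highest stromal and endothelial marker sum of the ILC2 libraries, 179 CPM, and a link was not tested. Itga2 was at 5.63 CPM in 1 WT ILC2p library and at 44.9 CPM in 1 Tgfbr2-/- ILC2p library, where the others were at 0.0991 CPM or less. Itgae was at 6.37 CPM in 1 Tgfbr2-/- ILC2p library and at 0 in the others. Itgal was at 369.5 CPM in 1 WT ILC2 library against 327 to 332 CPM in the other 3, a small gap in a tight group. The genotype effect on Itgav differed between the cell types by 4.66 on the log2 scale (adjusted p = 0.0889 by edgeR), and it was called in 4 of the 15 fits that left out 1 library. That test took the same spread for both cell types.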

How the results depend on the processing

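Of 920 values of single integrin genes under an alternative, 752 kept their direction and side of the threshold, 91 lost a call, 25 gained one and 52 changed sign. In LP ILC2s no alternative called an integrin gene, although experiment 2 alone has 1 Tgfbr2-/- library, which was assumed to vary like the WT ones, while the number of genes called went from 1 to 338 with DESeq2, 3 without a filter on low counts or in experiment 2 alone, 0 with at least 10 counts in every library, limma on RPKM, edgeR's legacy method, no covariate or experiment 1 alone, and 0 to 4 without 1 library. In ILC2p the 535 genes called became 1229 with DESeq2, 271 with at least 10 counts, 321 with the legacy method, 72 and 186 in experiments 1 and 2 alone, 328 at an adjusted p under 0.05, 2396 when scaled to the ILC2 markers, 1589 when scaled to Il7r and Il2ra, and 244 to 429 without 1 library. The 4 integrin genes called there became 3 with DESeq2, without Itgb7, 3 with upper quartile scaling, without Itgb2, 2 without the filter, with the legacy method, at an adjusted p under 0.05 and with either marker scaling, 1 with limma, 0 in either experiment alone, and 0 to 2 without 1 library. With at least 10 counts in every library 3 of 6 members tested were called, and Itgav was not tested. The marker scalings were chosen after seeing the data. The median of all genes in ILC2p, 0.05, moved to -0.17 with library size scaling, -0.27 with upper quartile scaling, 1.30 with ILC2 marker scaling and 1.05 with Il7r and Il2ra scaling.

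With the replicate number as a block, edgeR called 311 genes and 0 integrin genes in ILC2p, and 0 genes in ILC2s, where Itga1 was 1.13 and Itga2 0.12. Same-numbered libraries did not deviate together (correlations of -0.05, -0.01 and -0.03), so the libraries share only a number. Between cell types the 1810 genes became 579 with at least 10 counts, 558 in WT libraries alone, 186 and 592 without experiment 1 or 2 of ILC2s, 1118 at an adjusted p under 0.05, 4202 with ILC2 marker scaling, and 1053 to 2110 without 1 library. Counted over all 10 members, with Itga1, which passed the filter only through ILC2 libraries, the 4 integrin genes there became 2 with at least 10 counts, limma or without experiment 2 of either cell type, and 0 in WT libraries alone or without experiment 1 of ILC2s. For the interaction the 204 genes became 1518 with DESeq2, 382 with limma, 127 with the legacy method, 109 at an adjusted p under 0.05, 703 and 625 with the marker scalings, and 47 to 396 without 1 library. The 1 integrin gene there, Itgav, gave way to Itgb7 with limma and to Itgb2 with the marker scalings, and the count became 2 with DESeq2, library size or upper quartile scaling, 0 without the filter, with the legacy method or at an adjusted p under 0.05, and 0 to 2 without 1 library.

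Of the sign changes, those of a called gene were Itgb7 in ILC2p, at 0.27 with ILC2 marker and 0.0326 with Il7r and Il2ra scaling, and Itgb7 between cell types, at -0.0607 with ILC2 marker scaling. These scalings moved the median of all genes as well, to 1.30 and 1.05 in ILC2p, above Itgb7, and to -0.78 between cell types, below Itgb7. The others were of genes that were not called, by edgeR unless named otherwise. With ILC2 marker scaling Itgb1 was 0.28 and Itgb3 0.14 in ILC2p, Itga2 0.16 and Itgb7 0.0306 in ILC2s, Itgb1 -0.47 and Itgb3 -0.14 between cell types, and Itga4 -0.27, Itgb1 -0.58 and Itgb7 -0.24 in the interaction. With Il7r and Il2ra scaling Itgal was -0.024 in ILC2s and 0.071 between cell types, and Itga4 -0.29, Itgb1 -0.48 and Itgb7 -0.25 in the interaction. In ILC2s Itga1 was 0.0351 with DESeq2, 0.0326 with the legacy method and 1.09 in experiment 1 alone, Itgal -0.26 in experiment 2 alone, and Itga2 0.0704 with library size, 0.0873 with upper quartile, 0.0007 without the filter, 0.0438 with at least 10 counts, 0.0424 with limma and 0.12 in experiment 1 alone. Between cell types Itgal was 0.0626 with library size, 0.23 with upper quartile, 0.0727 with at least 10 counts, 0.10 with limma, 0.31 in WT libraries alone and 0.0816 without experiment 1 of ILC2p, and Itgb3 -0.0296 in WT libraries alone. Without 1 library, ranges that crossed 0 were, in ILC2s, Itga1 -2.29 to 1.07, Itga2 -0.22 to 0.16, Itgal -0.0596 to 0.23 and Itgav -0.0932 to 0.20, in the interaction, Itga2 -8.79 to 5.81 and Itgb1 -0.31 to 1.06, and between cell types Itgal -0.18 to 0.0348. Genes with few counts, Itga1, Itga2 and Itgae, had the widest ranges.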
